A study of Rattus norvegicus with 6 samples.

Results

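Immediate early genes and mitogen-activated protein kinase (MAPK) phosphatases were examined in the livers of rats given ADBAQ (1-amino-2,4-dibromoanthraquinone) and of rats given vehicle. The set comprised 10 genes: the activator protein 1 (AP-1) subunit genes Fos, Fosl2, Jun, Junb and Jund, the zinc finger gene Egr1, the phosphatase genes Dusp1 and Dusp6, and Ier3 and Myc. Their probes were found on the array by RefSeq accession, which gave 17 probes, among 61657 probes and 15284 genes with a named probe. At least 1 probe of each of the 10 genes passed the filter on dim probes, so all 10 were among the 11344 genes tested.

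The ADBAQ group was 3 male Sprague-Dawley (Crl:CD(SD)) rats given 1000 mg/kg/day, and the vehicle group was 3 male rats of the same strain. All rats were 5 weeks old when bought, and liver RNA of each was hybridised to its own 1-colour Agilent array. The labels disagree on the vehicle: the sample characteristics name purified water, while the treatment protocol names corn oil. They also disagree on the length of dosing, given as 28 days in the study design and as 9 weeks in the treatment protocol. ADBAQ is an anthraquinone dye intermediate.

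Immediate early genes are transcribed within minutes of a growth factor or stress signal, without new protein synthesis, because the factors that act on their promoters are already present and are switched on by MAP kinases. FOS and JUN family proteins pair through leucine zippers to form AP-1, which binds DNA and sets off a later wave of transcription. MAPK phosphatases, themselves early targets of the kinases, remove phosphate from them and so close the loop. In the liver, many genes of these classes are known for a fast and brief rise after partial hepatectomy, feeding or injury.

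Promoter sequences were looked up for the members, since the letters that read out kinase and cAMP signals lie close to the transcription start in this gene class. RefSeq sequences on the GRCr8 build matched 6 of the 10 members, Dusp1, Dusp6, Egr1, Fosl2, Junb and Jund, and the 250 bases before the start were searched on both strands. The stretches of Dusp1 and Egr1 are shown because these genes were the members called, and that of Jund because it held the same cAMP response element (CRE) letters as Dusp1. Capitals mark the CRE in Dusp1 and Jund and the CArG boxes, the core of the serum response element, in Egr1. Dusp1 is at chr10:17184603-17184852 on the plus strand, Egr1 at chr18:26736828-26737077 on the plus strand and Jund at chr16:18769772-18770021 on the minus strand, each printed 5′ to 3′ in the direction of transcription.
Dusp1: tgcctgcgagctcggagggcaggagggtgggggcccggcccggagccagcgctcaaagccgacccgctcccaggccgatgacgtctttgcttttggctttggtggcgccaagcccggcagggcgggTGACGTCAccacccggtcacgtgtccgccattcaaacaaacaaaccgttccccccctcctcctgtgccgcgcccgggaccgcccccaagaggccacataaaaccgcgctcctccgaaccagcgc
Egr1: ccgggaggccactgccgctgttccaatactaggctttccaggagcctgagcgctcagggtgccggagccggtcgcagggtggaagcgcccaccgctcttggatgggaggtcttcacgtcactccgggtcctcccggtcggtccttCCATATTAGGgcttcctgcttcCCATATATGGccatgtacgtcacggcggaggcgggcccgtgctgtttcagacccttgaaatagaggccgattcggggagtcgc
Jund: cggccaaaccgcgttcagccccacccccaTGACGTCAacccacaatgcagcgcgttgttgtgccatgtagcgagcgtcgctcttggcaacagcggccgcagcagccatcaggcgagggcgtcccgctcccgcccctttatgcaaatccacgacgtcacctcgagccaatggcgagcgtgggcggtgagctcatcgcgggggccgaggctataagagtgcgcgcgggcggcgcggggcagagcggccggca

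The Dusp1 stretch held the CRE (TGACGTCA) 124 to 117 bases before the start, an E-box (CACGTG) between the CRE and the start, and Sp1 letters (GGGCGG on either strand) from 131 and from 46 bases before it. None of these overlapped. The Egr1 stretch held CArG boxes at 105 to 96 and at 83 to 74 bases before the start. The Jund stretch held the CRE 221 to 214 bases before the start, and an EGR site (GCGTGGGCG) from 76 bases before it, which shared letters with an aryl hydrocarbon receptor core (GCGTG) from 76 and an Sp1 match from 72. Other Sp1 matches in Jund began 122 and 27 bases before the start.

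Among 33469 rat promoters of the same length, the CRE was present in 1.59%, the CArG box in 1.5% and the EGR letters (GCGGGGGCG or GCGTGGGCG) in 2.85%. The E-box was present in 5.59%, the receptor core in 25.9% and the Sp1 letters in 30.5%. Fosl2 held an EGR site from 249 bases before its start that shared letters with an Sp1 match from 245. Junb held receptor cores from 172 and 128 bases and a TATA box (TATAAA, in 12.9% of promoters) from 49 bases before its start. None of the searched letters lay in the Dusp6 window, and no member window held the AP-1 letters TGACTCA, present in 4.05% of promoters. These are matches of letters and carry no measurement of binding.

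Values are given as relative signal, which is each spot's processed signal over the 75th percentile of its own array, and that percentile was 570.3 to 643 intensity units on ADBAQ arrays and 432.7 to 461.4 on vehicle arrays. Between 62.1% and 65.3% of probes were well above background on each array, and no spot was saturated. Log2 values of arrays within a group correlated at 0.989 to 0.993 across probes. The ADBAQ arrays lay on one slide and one scan day and the vehicle arrays on another, so the effect of ADBAQ cannot be told apart from that of slide or scan day. Scaled to the 8 spike-in control probes instead, every log2 fold change lies 0.76 higher and the median of all genes is 0.72 in place of -0.04, so a gene that fell by less than that amount changes sign under that scaling.

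The liver label fitted the markers, since all 10 hepatocyte markers were tested, albumin among them at 758.3, 857.1 and 824.5 in ADBAQ rats and 1065, 988.6 and 1050 in vehicle rats. Summed hepatocyte markers were 5202 to 5481 in ADBAQ rats and 6715 to 7254 in vehicle rats, and 7 of 10 were called lower. Kupffer cell markers summed to 123.5 to 139.8 in ADBAQ rats and 114.7 to 142.3 in vehicle rats, with 0 of 10 called by limma (0 also at an unadjusted p under 0.05). Endothelial markers (0 of 6 called by limma, 2 lower at an unadjusted p under 0.05) summed to 31.3 to 35.7 in ADBAQ rats and 38.1 to 42.0 in vehicle rats, and stellate cell markers (1 of 10 called, lower) to 33.3 to 37.5 in ADBAQ rats and 36.3 to 48.9 in vehicle rats. Most of the endothelial sum was Kdr, at 25.6 to 28.8 in ADBAQ rats and 31.6 to 34.9 in vehicle rats. Fold changes of the endothelial markers were below 0 for 4 and above 0 for 2. Cholangiocyte markers, of which Epcam and Cftr were called higher and Krt7 lower among 5, summed to 2.45 to 3.84 in ADBAQ rats and 1.57 to 1.87 in vehicle rats. Neutrophil markers summed to 2.48 to 3.08 in ADBAQ rats and 1.09 to 1.70 in vehicle rats, where 1 of 4, Lcn2, was called higher. Lcn2 alone read 0.611, 1.31 and 0.995 in ADBAQ rats and 0.197, 0.174 and 0.198 in vehicle rats. The others, S100a8, S100a9 and Csf3r, overlapped between the groups and were not called. Lymphocyte markers (1 of 6 called, lower) summed to 1.62 to 1.85 in ADBAQ rats and 1.82 to 2.09 in vehicle rats. The part of these shifts in the members' values was not tested.

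ADBAQ livers had less Dusp1 and Egr1 message than vehicle livers, and no other member was called by its brightest probe. A gene was called where its adjusted p, from limma's moderated test over all probes kept with Benjamini-Hochberg adjustment, was under 0.05. By that rule 0 of the 10 members were higher and 2 were lower (2 higher and 3 lower at an unadjusted p under 0.05), while 9.05% of all genes tested were higher, 11.3% were lower and 20.3% were called in all, so the members' share of calls lay at the background. Of the 16 member probes tested, 1 was called higher and 2 were called lower, against 18.4% of all probes called. The members' median log2 fold change was 0.08, beside -0.04 over all genes, and the median of its absolute size was 0.62, beside 0.25 over all genes. Their median SD between rats of a group was also higher, 0.322 beside 0.155, and its part in these sizes was not tested. The values of ADBAQ and vehicle rats did not overlap for 5 members, Jun and Jund on the higher side and Egr1, Dusp1 and Dusp6 on the lower side, and 46.4% of all genes tested showed such separation. With 3 rats against 3, an exact permutation test of one gene cannot go below p = 0.1, and in whole liver fewer cells of a type and less RNA per cell cannot be told apart.

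**Figure D1:**
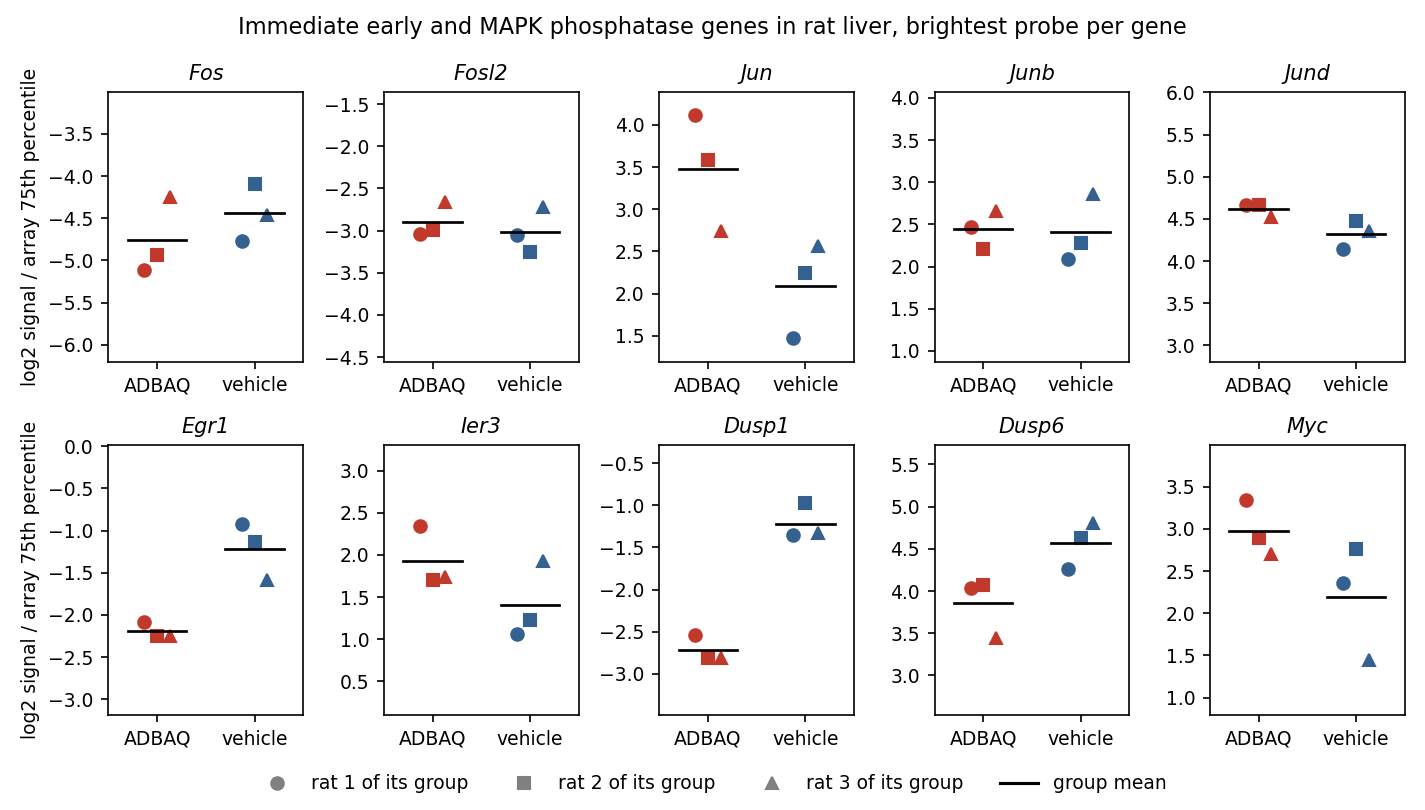
Relative signal (log2, y axis) of each of the 10 members in each rat, by its brightest probe, with ADBAQ on the left and vehicle on the right of each panel. Points are rats, symbols give the rat's number within its group, bars are group means, and all panels span the same log2 range. The ADBAQ points lie below all vehicle points for Egr1, Dusp1 and Dusp6 and above them for Jun and Jund.

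Dusp1 encodes MKP-1, a nuclear phosphatase that inactivates p38, JNK and ERK. Its probe, A_43_P12927 for NM_053769, read 0.172, 0.143 and 0.143 in ADBAQ rats and 0.392, 0.510 and 0.398 in vehicle rats. Every ADBAQ rat lay well below every vehicle rat, and the ADBAQ values were close together. Dusp1 was 2.83-fold lower, with a log2 value of -1.50 ± 0.14 (SE over 3 rats in each group), a 95% interval of -1.85 to -1.15 and a limma adjusted p of 0.00369. By absolute size this was rank 322 of 11344 genes. The call held in each of the 17 alternative settings run, including each array left out in turn (adjusted p 0.0119 to 0.0185), although the log2 value shrank to -1.0 under normexp background correction and to -0.74 under spike-in scaling.

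Dusp6 encodes MKP-3, a cytoplasmic phosphatase specific for ERK, and its message is a usual readout of ERK activity. Its probe, A_42_P668682 for NM_053883, read 16.4, 16.8 and 10.9 in ADBAQ rats and 19.2, 24.7 and 28.0 in vehicle rats. All ADBAQ rats were below all vehicle rats, and ADBAQ rat 3 was lowest. The log2 fold change was -0.71 ± 0.22 (95% interval -1.25 to -0.18), and the adjusted p of 0.0694 missed the threshold. With normexp background correction it was -0.65 with an adjusted p of 0.0295, and with spike-in scaling it was 0.04.

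Egr1 encodes a zinc finger transcription factor induced through serum response elements of the kind marked above. Its probe, A_64_P082693 for NM_012551, read 0.236, 0.211 and 0.210 in ADBAQ rats and 0.527, 0.454 and 0.332 in vehicle rats. The groups did not overlap, and vehicle rat 3 was the nearest to the ADBAQ rats. Egr1 was 1.97-fold lower, a log2 fold change of -0.98 ± 0.18 (95% interval -1.41 to -0.54) with an adjusted p of 0.0181. The call was lost without ADBAQ rat 1, 2 or 3 or without vehicle rat 2 (adjusted p 0.0515 to 0.0597), and with spike-in scaling the fold change was -0.22 (adjusted p = 0.349).

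Jun encodes c-Jun, the main AP-1 partner of FOS proteins and a substrate of JNK, and it had the highest fold change among the members. Its brighter probe, A_42_P741027 for NM_021835, read 17.3, 12.0 and 6.69 in ADBAQ rats and 2.77, 4.75 and 5.90 in vehicle rats. All ADBAQ rats were above all vehicle rats, but ADBAQ rat 3 was close to vehicle rat 3. The log2 fold change was 1.39 ± 0.42 (95% interval 0.38 to 2.39), and the adjusted p was 0.0653. It passed the threshold with normexp background correction (adjusted p = 0.0222), without ADBAQ rat 3 (1.75, adjusted p = 0.0478), as the mean of the gene's probes (adjusted p = 0.0498) and with spike-in scaling.

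The other Jun probe, A_64_P053353, read 5.13, 4.42 and 2.52 in ADBAQ rats and 1.05, 1.73 and 2.03 in vehicle rats. Its rats stood in the same order as on the brighter probe. Its log2 fold change was 1.32 ± 0.35 (95% interval 0.48 to 2.16), with an adjusted p of 0.0464, so it was called. The call was lost without any single array other than ADBAQ rat 3 (adjusted p 0.0666 to 0.127) and with no filter on dim probes (0.0553). The probes thus gave nearly equal fold changes on either side of the threshold.

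Jund, unlike Jun, is known for a steady level in resting cells. Its brightest probe, A_64_P119675 for NM_138875, read 25.3, 25.4 and 23.0 in ADBAQ rats and 17.7, 22.3 and 20.4 in vehicle rats. All ADBAQ rats were above all vehicle rats by a narrow margin, and the log2 fold change was 0.29 ± 0.11 (adjusted p = 0.124). A second probe, A_42_P537443, also separated the groups, with 23.6, 23.5 and 20.8 in ADBAQ rats and 15.3, 19.3 and 18.2 in vehicle rats. Its fold change was 0.37 ± 0.12 (adjusted p = 0.0814), which passed the threshold with normexp background correction (0.0255), with a trended, robust variance model (0.0469) and with spike-in scaling. On a dimmer probe, A_43_P15517, the groups overlapped, and its fold change of 0.59 ± 0.32 had an adjusted p of 0.242.

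Junb, an AP-1 subunit that often opposes c-Jun, overlapped between the groups. Its brighter probe, A_64_P029805 for NM_021836, read 5.55, 4.60 and 6.31 in ADBAQ rats and 4.24, 4.86 and 7.23 in vehicle rats. The highest and the lowest value were both in vehicle rats, and the fold change was 0.04 ± 0.23 (95% interval -0.51 to 0.58, adjusted p = 0.920). A missed threshold with an interval of that width does not show equal levels. Probe A_43_P12125 gave 0.20 ± 0.21 (adjusted p = 0.536).

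Fos encodes c-Fos, the classic immediate early protein. Its brighter probe, A_44_P495480 for NM_022197, read 0.0290, 0.0327 and 0.0528 in ADBAQ rats and 0.0367, 0.0584 and 0.0454 in vehicle rats. The groups overlapped, the fold change was -0.32 ± 0.27 (95% interval -0.98 to 0.34, adjusted p = 0.436), and with spike-in scaling it was 0.44. With an array left out it ran from -0.58 without ADBAQ rat 3 to -0.15 without ADBAQ rat 1. The lowest relative signal of any probe well above background was 0.0215 to 0.0226 on ADBAQ arrays and 0.0271 to 0.0282 on vehicle arrays, so Fos was measured close to that limit. The second Fos probe, A_64_P131051, was well above background on 1 ADBAQ array and 2 vehicle arrays and was not tested.

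Fosl2 encodes Fra-2, an AP-1 subunit of slower kinetics than c-Fos. Its brightest probe, A_64_P065063 for NM_012954, read 0.122, 0.125 and 0.159 in ADBAQ rats and 0.121, 0.104 and 0.151 in vehicle rats. The groups overlapped almost wholly, with a fold change of 0.11 ± 0.17 (95% interval -0.31 to 0.54, adjusted p = 0.674). The other probes, A_44_P101792 and A_64_P050851, gave -0.13 ± 0.17 and -0.12 ± 0.15 (adjusted p 0.618 and 0.586). Of the 7 AP-1 subunit genes, 5 were tested and 0 were called by limma on their brightest probe (2 higher at an unadjusted p under 0.05), with a median of 0.11. Fosl1 had a named probe that did not pass the filter and Fosb had no named probe.

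Ier3 encodes IEX-1, a small stress-induced regulator of cell survival and ERK signalling. Its probe, A_42_P515405 for NM_212505, read 5.07, 3.25 and 3.33 in ADBAQ rats and 2.08, 2.34 and 3.80 in vehicle rats. Vehicle rat 3 lay above 2 of the 3 ADBAQ rats, and the fold change was 0.52 ± 0.28 (95% interval -0.15 to 1.20, adjusted p = 0.228). Without vehicle rat 3 it was 0.78 (adjusted p = 0.0887), and without ADBAQ rat 1 it was 0.31 (adjusted p = 0.490).

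Myc encodes a growth-promoting transcription factor that binds E-boxes together with MAX. Its probe, A_42_P493380 for NM_012603, read 10.1, 7.42 and 6.51 in ADBAQ rats and 5.12, 6.79 and 2.72 in vehicle rats. Vehicle rat 2 lay above ADBAQ rat 3 and the other 2 vehicle rats lay below every ADBAQ rat. The fold change was 0.79 ± 0.35 (95% interval -0.06 to 1.64, adjusted p = 0.163), and without vehicle rat 3, the lowest rat, it was 0.42 (adjusted p = 0.282).

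**Figure D2:**
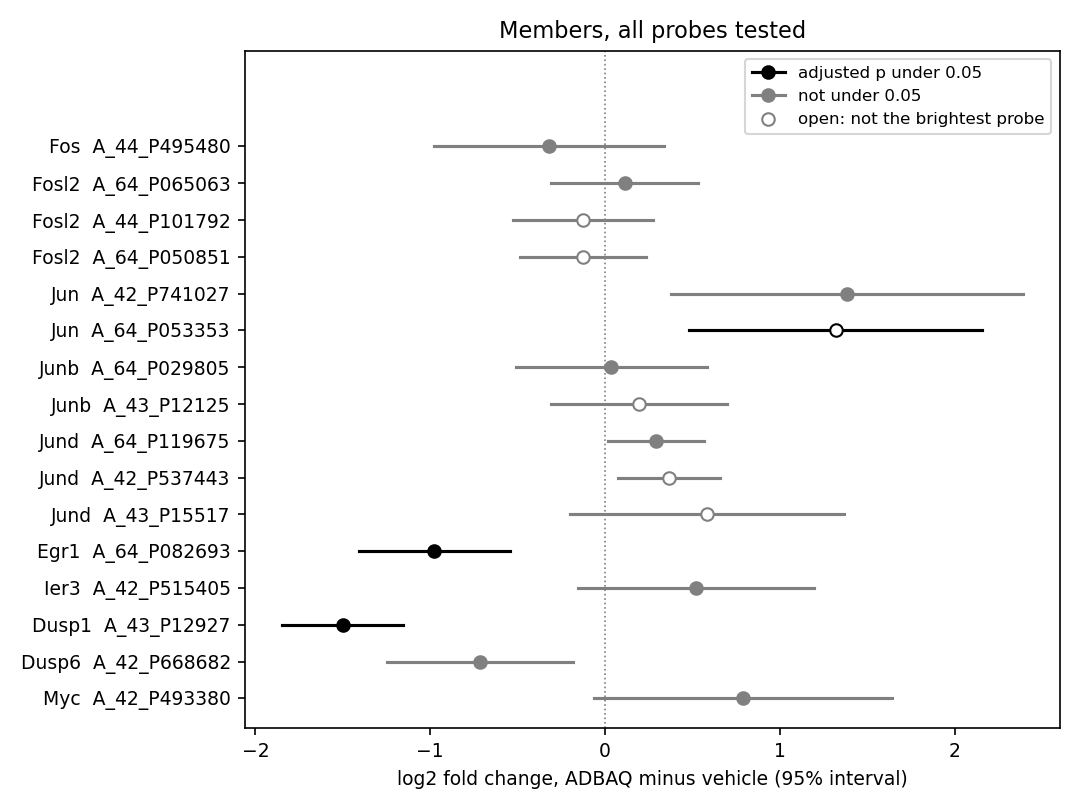
Log2 fold change, ADBAQ minus vehicle (x axis), of the 16 member probes tested, with 95% intervals from limma. Filled points are the brightest probe of a gene, open points are other probes, and black marks an adjusted p under 0.05. The intervals of Dusp1, Egr1 and Dusp6 lie wholly below 0, and those of both Jun probes and of the Jund probes A_64_P119675 and A_42_P537443 lie wholly above it.

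The members varied more between rats of one group than most genes did. Their median pooled within-group SD was 0.322 on the log2 scale, beside 0.155 over all genes tested, and 9 of the 10 lay above the all-gene median. Jun was the most variable, with an SD of 0.630, above that of 96.6% of genes. Myc followed at 0.531, above 94.7%, then Ier3 at 0.413, above 90.3%, and Fos at 0.401, above 89.6%. The called genes were among the steadier members, with an SD of 0.186 for Dusp1 (above 59.2% of genes) and 0.250 for Egr1 (above 73.5%), and Jund was the steadiest at 0.131 (above 41.2%). Of the 4 most variable members, Jun, Myc and Ier3 had a mean signal above that of 77.1%, 75.1% and 65.6% of genes. The mean of Fos was above that of only 3.7%, and the part of low signal in its SD was not tested. The SD rests on 3 rats a group. The test behind a call uses this SD, so a steadier gene is called more easily at a given fold change.

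**Figure D3:**
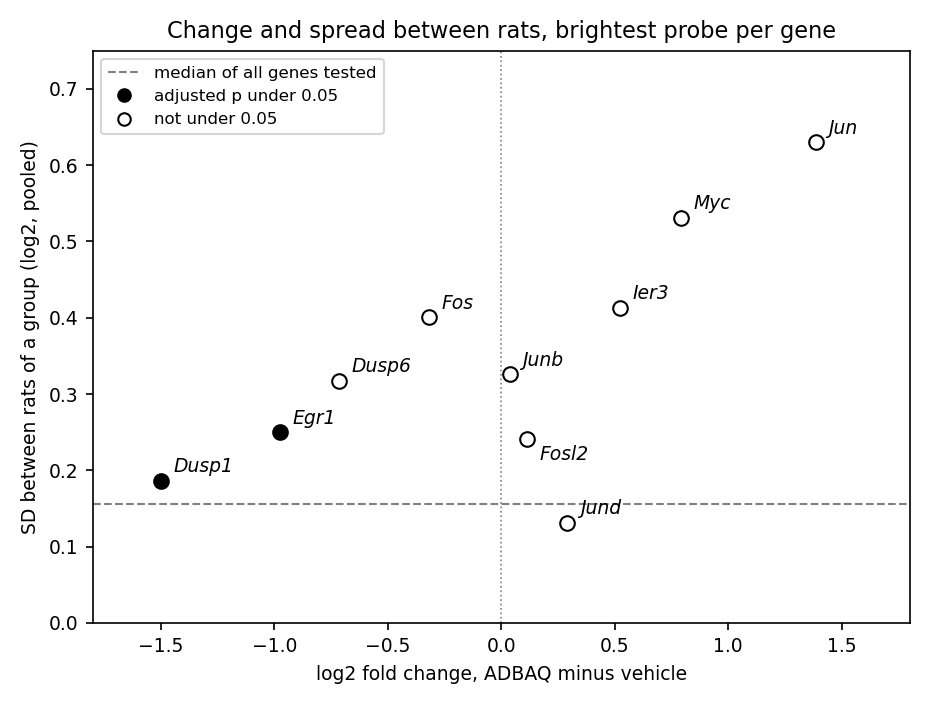
Pooled SD between rats of a group (log2, y axis) against log2 fold change, ADBAQ minus vehicle (x axis), for the brightest probe of each member. The dashed line is the median SD of all genes tested, 0.155, and filled points have an adjusted p under 0.05. Jun combines the highest fold change, 1.39, with the highest SD, 0.630, and Dusp1 combines the lowest fold change, -1.50, with an SD of 0.186.

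Genes around the members were read from lists of pathway partners, without the members themselves. In all, 160 of 194 list genes were tested, and 18 were higher and 18 were lower, which is 22.5% called beside 20.3% of all genes. Their median log2 fold change was 0.03, beside -0.04 over all genes.

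Among other leucine zipper partners of AP-1, 6 of 11 tested genes were called (54.5%, beside 20.3% of all genes), 3 higher and 3 lower, with a list median of -0.09. When each of the 6 arrays had to pass the background filter, 2 were called higher and 3 lower. Atf3, a stress-induced repressor and AP-1 partner, read 6.15, 5.06 and 3.96 in ADBAQ rats and 0.347, 0.814 and 0.700 in vehicle rats. The lowest ADBAQ rat was far above the highest vehicle rat, and Atf3 was 8.55-fold higher (log2 3.10 ± 0.34, adjusted p = 0.0053). Mafk, a small MAF gene whose protein lacks an activation domain, was higher by 0.91 ± 0.11 (adjusted p = 0.00727), or 0.54 with normexp background correction. The calls of Atf3 and Mafk held with each array left out in turn. Maff, another small MAF gene, read 0.405, 0.252 and 0.271 in ADBAQ rats and 0.0545, 0.0624 and 0.0360 in vehicle rats. Its probe was well above background on 3 ADBAQ arrays and 2 vehicle arrays, so it was tested only because of its ADBAQ signal. Its log2 fold change of 2.61 ± 0.27, or 0.94 with normexp background correction, is given as a description.

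Among those lower in ADBAQ rats were Jdp2, a Jun dimerisation partner, at -0.94 ± 0.22 (adjusted p = 0.0333), and Atf7, a CRE-binding factor, at -0.55 ± 0.12 (adjusted p = 0.0292). Both calls depended on single arrays. Jdp2 lost its call without any array other than vehicle rat 1 (0.0932), and was -0.58 with normexp background correction and -0.18 with spike-in scaling (adjusted p = 0.416). Atf7 lost it without any array other than vehicle rat 3 (0.0829), and was 0.20 with spike-in scaling.

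Of other immediate early genes, 35 of 38 were tested, and 5 were higher and 4 were lower, with a list median of 0.09. The share called was 25.7%, beside 20.3% of all genes. Per1, a circadian repressor with an early response to cAMP and glucocorticoid, read 0.0655, 0.119 and 0.0727 in ADBAQ rats and 0.234, 0.290 and 0.214 in vehicle rats. It was 2.95-fold lower without overlap (log2 -1.56 ± 0.25, adjusted p = 0.0122), or -0.99 with normexp background correction. Ccn2, the connective tissue growth factor gene, was lower by -0.89 ± 0.09 (adjusted p = 0.00399), with nearly equal values within each group, 0.157 to 0.177 in ADBAQ rats and 0.306 to 0.314 in vehicle rats. The calls of Per1 and Ccn2 held with each array left out. With spike-in scaling Per1 was still called at -0.81 (adjusted p = 0.0175), while Ccn2 was -0.13 and not called (adjusted p = 0.259).

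Btg1, an antiproliferative gene, was lower by -1.14 ± 0.21, a call lost without ADBAQ rat 1 or 2 or vehicle rat 3 and with spike-in scaling (-0.39, adjusted p = 0.151). Its relative Btg2 was higher by 0.88 ± 0.16, a call lost without ADBAQ rat 1 or 2. Id2, an inhibitor of helix-loop-helix factors, was higher by 1.03 ± 0.23 and kept its call only without vehicle rat 1. Nr4a1, an orphan nuclear receptor, was higher by 0.86 ± 0.18, a call lost without ADBAQ rat 1, ADBAQ rat 3 or vehicle rat 3. Klf6 missed the threshold at 0.52 ± 0.16 (adjusted p = 0.0729). Egr2, a relative of Egr1, was well above background on 3 ADBAQ arrays and 0 vehicle arrays, so it was tested only because of its ADBAQ signal. It was not called (adjusted p = 0.0978), and no fold is given because normexp background correction put its log2 value at -0.05.

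Of other dual specificity phosphatases, 13 of 18 were tested, and 2 were higher and 0 lower by limma (2 and 1 at an unadjusted p under 0.05), with a list median of -0.08. The share called was 15.4%, beside 20.3% of all genes. Dusp16, a phosphatase for JNK and p38, read 3.97, 3.49 and 4.60 in ADBAQ rats and 2.02, 2.40 and 2.15 in vehicle rats. Those groups did not overlap, and Dusp16 was higher by 0.87 ± 0.13 (adjusted p = 0.0112), the opposite side from Dusp1. Dusp3 was higher by 0.59 ± 0.12 (adjusted p = 0.0252), a call kept only without vehicle rat 1. The ERK-induced phosphatase genes Dusp4 and Dusp5 gave 0.35 ± 0.25 and 0.05 ± 0.16 (adjusted p 0.355 and 0.856), and their groups overlapped.

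ERK feedback and output genes, the Sprouty, ETS and related genes that follow ERK activity, gave 0 higher and 2 lower of 13 tested by limma (0 and 2 also at an unadjusted p under 0.05), with a median of -0.11. The share called was 15.4%, beside 20.3% of all genes. Errfi1, a feedback inhibitor of the EGF receptor, read 142, 145 and 103 in ADBAQ rats and 248, 241 and 225 in vehicle rats, a fold change of -0.89 ± 0.15 (adjusted p = 0.0148), or -0.13 and not called with spike-in scaling (adjusted p = 0.458). Ccnd1, the cyclin D1 gene, was lower by -0.95 ± 0.20 (adjusted p = 0.0244), a call lost without ADBAQ rat 1 or 2 or vehicle rat 2 or 3 and with spike-in scaling (-0.19, adjusted p = 0.385). Spry4 gave 0.17 ± 0.18 (adjusted p = 0.539).

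Of the MAP kinase cascade, 38 of 43 genes were tested and 4 were called, 10.5% beside 20.3% of all genes, with a median of 0.00. Map2k3, a kinase that activates p38, read 23.7, 21.3 and 19.8 in ADBAQ rats and 11.5, 10.73 and 11.1 in vehicle rats. Each ADBAQ rat was clearly above each vehicle rat, and the fold change was 0.96 ± 0.10 (adjusted p = 0.00456). Map2k6 had the lowest fold change of the list, -1.03 ± 0.32. Its groups did not overlap, but it was not called (limma adjusted p = 0.0693). Map2k5, Map3k11 and Mapk11 were lower by -0.40 ± 0.10, -0.40 ± 0.08 and -0.41 ± 0.11. Each of these turned positive with spike-in scaling, and Map2k5 and Mapk11 lost their call with any array left out, Map3k11 with any but vehicle rat 1. The ERK gene Mapk3 was not called, at -0.19 ± 0.09 (adjusted p = 0.179).

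Regulators of immediate early promoters gave 1 higher and 3 lower of 14 tested (28.6% called, beside 20.3% of all genes), with a median of -0.18. Nab2, a corepressor of EGR proteins that EGR1 itself induces, read 0.569, 0.479 and 0.581 in ADBAQ rats and 1.95, 1.47 and 1.59 in vehicle rats. It was 3.06-fold lower without overlap (log2 -1.61 ± 0.14, adjusted p = 0.00309), on the same side as Egr1, and it held with each array left out and with spike-in scaling (-0.85). Crtc2, a CREB coactivator, was lower by -0.55 ± 0.09 (adjusted p = 0.0121), or 0.20 with spike-in scaling. Elk1, a partner of SRF at serum response elements, was lower by -0.53 ± 0.14 and Mef2d was higher by 0.37 ± 0.09, and both lost their call with any array left out. Srf itself gave -0.25 ± 0.11 (adjusted p = 0.152).

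Of the MYC network, 10 of 16 genes were tested, and 0 were higher and 2 lower by limma (1 and 2 at an unadjusted p under 0.05), with a median of -0.20. The share called was 20%, beside 20.3% of all genes. Mlxipl, which encodes the glucose sensor ChREBP, was lower by -0.68 ± 0.11 (adjusted p = 0.0131), or 0.07 with spike-in scaling. Usp28, a deubiquitinase that stabilises MYC, was lower by -0.54 ± 0.12, a call kept only without vehicle rat 3, and was 0.22 with spike-in scaling. Max gave -0.11 ± 0.14 (adjusted p = 0.618).

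Known MYC target genes had a list median of 0.35, and 26 of 28 were tested, 6 of them higher and 1 lower. The share called was 26.9%, beside 20.3% of all genes, and with the replicate block 0 genes of the list were called. Without ADBAQ rat 1 or without ADBAQ rat 2 the list had 0 genes higher and 1 lower by limma, and without ADBAQ rat 3 or without vehicle rat 2 it had 2 higher and 1 lower. ADBAQ and vehicle rats did not overlap for 15 genes on the higher side and 1 on the lower side, 61.5% of the list beside 46.4% of all genes. The ribosome assembly genes Nop56, Ddx21 and Bop1 were higher by 0.81 ± 0.15, 0.64 ± 0.13 and 0.55 ± 0.09 (adjusted p 0.0189, 0.0217 and 0.015). Nop56 lost its call without any one ADBAQ rat, Ddx21 without ADBAQ rat 1 or 2 or vehicle rat 2, and Bop1 without ADBAQ rat 1 or 2. Ldha, the lactate dehydrogenase A gene, was the member of the list called lower, at -0.58 ± 0.09 (adjusted p = 0.0112), or 0.18 with spike-in scaling.

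Of the 39 list genes named by the rule used, 30 were called. The call held with each array left out for 12 of these, Atf3, Maff, Mafk, Nab2, Per1, Ccn2, Errfi1, Map2k3, Dusp16, Ldha, Crtc2 and Mlxipl, and was lost at least once for the other 18. Of the 12, Maff was tested only because of its ADBAQ signal. The number of calls with an array left out was 3 to 5 of the leucine zipper partners (6 with all arrays) and 2, without ADBAQ rat 1, to 9 of the other immediate early genes (9 with all arrays). It was 1 to 2 of the MAP kinase cascade genes and 2 to 3 of the promoter regulators (4 each with all arrays). It was 1 to 2 of the dual specificity phosphatases, the ERK feedback genes and the MYC network (2 each with all arrays).

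**Figure D4:**
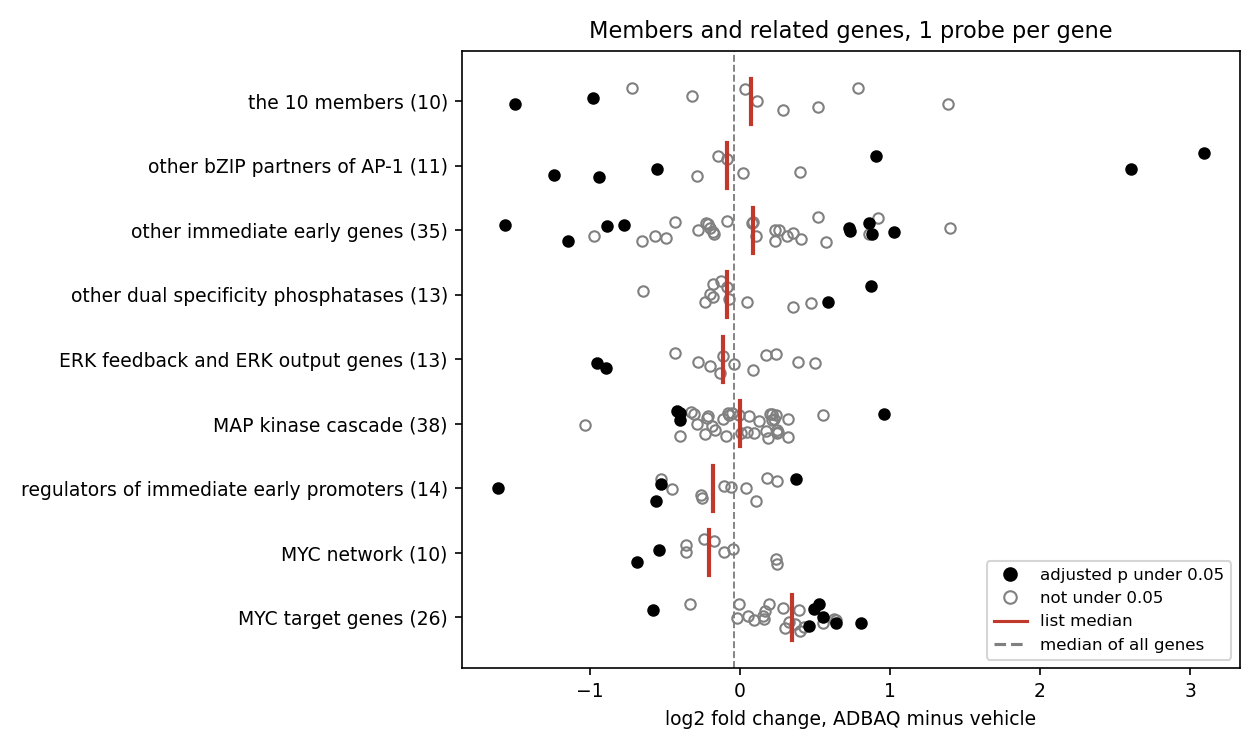
Log2 fold change, ADBAQ minus vehicle (x axis), of the 10 members and of the genes tested in each list, 1 probe per gene, with the number of genes in parentheses. Filled points have an adjusted p under 0.05, red bars are list medians and the dashed line is the median of all genes tested, -0.04. Atf3 at 3.10 and Maff at 2.61 stand farthest to the right, and the median of the MYC target genes, 0.35, is the highest of the list medians. Maff was tested only because of its ADBAQ signal, and its value was 0.94 with normexp background correction.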

How the data were processed

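Total liver RNA of 6 rats was labelled with Cy3 and read on 6 1-colour arrays with Agilent Feature Extraction 10.7.1.1, per the file headers (10.7 in the submitters' processing notes), on a design built on rn4. From the deposited scanner files came linear intensity columns: processed signal after background subtraction, and the medians of spot and local background. Other columns, per the file headers, are flags for control spots, spots well above background, saturation and outliers. The authors' series table gives a linear ratio that matched processed signal over the array's 75th percentile when set against each array, with no centring by gene.

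Control spots and outlier-flagged spots were left out, and log2 processed signal was centred on each array's 75th percentile. Spots of a probe were not averaged and each was its own row, so probe numbers for the whole array count spots. Probes well above background on all 3 arrays of a group were kept (38695). Names came from RefSeq accessions, and a gene was counted by its brightest probe. limma 3.58.1 (R 4.3.3) compared ADBAQ with vehicle, with Benjamini-Hochberg adjustment over all probes kept. The number of arrays limits the precision.

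The members, lists and tests were chosen with earlier results of these data known. Named list genes were the 3 largest rises and 3 largest falls of each list among called genes without overlap, plus 14 genes chosen by name. Map2k6 was named outside this rule. Some of the genes this rule names are not reported here. Alternatives were normexp correction (on the median spot signal, with an offset of 50), quantile, median and spike-in scaling, other probe filters, the authors' table, other variance models, array weights, a replicate block, leaving out each array in turn, and averaging all kept probes per gene. Same-numbered rats' deviations from their group means correlated at -0.029, -0.020 and -0.0046 over the probes kept, so no pairing by number was seen. A pairing that touches few genes would not show in these correlations.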

Additional observations from a re-analysis of the deposited data

How the results depend on the processing

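Of the 10 members, 2 were called, 4 with normexp background correction (1 higher, 3 lower), 7 with spike-in scaling (6 higher, 1 lower) and 1 to 2 with an array left out. Of all genes, 2308 were called (1027 higher, 1281 lower), 4049 with normexp (1394 higher, 2655 lower), 9124 with spike-in scaling (8937 higher, 187 lower), 3530 with no filter on dim probes (1143 higher, 2387 lower), and 922 to 1564 with an array left out. Of the pathway list genes, 36 were called, 56 with normexp, 128 with spike-in scaling and 13 to 27 with an array left out. With the replicate block, 2 members, 982 genes and 12 list genes were called, and the Jun probe A_64_P053353 (adjusted p = 0.112) was among the calls lost. Signs turned for uncalled probes: with spike-in scaling Fos was 0.44, Fosl2 0.63 on A_64_P050851 and 0.63 on A_44_P101792, and Dusp6 0.0419. With normexp, Fosl2 A_64_P065063 was -0.13 and Junb A_43_P12125 was -0.27. With the mean of a gene's probes Fosl2 was -0.0458. With an array left out, Junb A_64_P029805 ranged over -0.1242 to 0.2614, Fosl2 A_64_P065063 over -0.0094 to 0.2569 and Fosl2 A_44_P101792 over -0.2144 to 0.0447. Fewer samples enter a fit with an array left out, and the other causes were not tested. A slide block was not run because each slide held 1 group. Fos, near the lowest detected signal, is limited by signal over background.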
